A study of Mus musculus with 6 samples.

Results

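The genes described here encode the proteasome: every non-control probe on the array whose accession named a mouse gene with a symbol beginning Psma, Psmb, Psmc, Psmd, Psme, Psmf or Psmg. The rule found 58 probes for 43 genes, out of 37471 genes on the array, of which 36015 were tested and 12116 of those had a symbol. Of the 43, 41 encode subunits, assembly factors or activators of the proteasome. Psmc3ip, a partner of the meiotic recombinases, and Psme3ip1, a protein that binds the activator Psme3, share only the first letters of the symbol and were kept under the rule. Psma8, Psmb4, Psmc1, Psmd1, Psme2b, Psme4, Psmf1 and Psmg4 were not analysed here.

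The arrays compared 3 kinds of mouse cells, 2 arrays each, which the study's design calls biological replicates. MAPC are multipotent adult progenitor cells of clone 2 (high Oct4), so that both arrays hold RNA of 1 clone. It was derived from bone marrow cells cultured with 2% serum, EGF, PDGF-BB and LIF at 5% oxygen, depleted of CD45+ and Ter119+ cells after 4 weeks, replated at 10 cells a well and carried beyond 80 population doublings; no strain is stated for it. ESC are C57BL/6 embryonic stem cells kept in 15% serum and LIF on irradiated mouse embryonic fibroblasts and moved off the feeders before RNA extraction. NS are neurospheres from C57BL/6 neuroepithelial cells of the E11.5 forebrain, grown with EGF and bFGF. Cell type, strain, clone, medium and oxygen changed together between the groups and cannot be told apart.

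Each sample, labelled with Cy3, was hybridised against 1 common Cy5 reference made from 11 mouse cell lines, with no dye swap, so a dye effect is shared by all arrays. Values are log2(sample/reference) and differences between groups are log2 differences of these ratios. A gene passed the test when limma's p, adjusted over all genes of that comparison by Benjamini-Hochberg, was under 0.05. In the sample dye, 91.9% to 99.6% of an array's probe spots passed the scanner's test for standing well above background. All 43 proteasome genes were well above background on all 6 arrays. The 2 arrays of a group differed by a median of 0.06 in MAPC, 0.06 in ESC and 0.04 in NS over these genes. With 2 arrays a group, the number of arrays limits the precision, and p-values measure only the spread between these arrays.

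Cell type markers mostly followed the labels, with limits. The endoderm-associated genes Sox17, Foxa2, Sox7 and Pdgfra were higher in MAPC than in ESC and in NS. In MAPC, 8 of 8 embryonic stem cell markers were lower than in ESC, and 7 of 8 neural progenitor markers were lower than in NS. These stand beside 22.1% and 22.5% of all genes. In ESC minus NS, 6 of 8 embryonic stem cell markers were higher and 6 of 8 neural progenitor markers lower, beside 19.8% and 18.4%. Sox2, which is on both lists (-0.08), and Esrrb (-0.007) did not pass there. Esrrb was dim in ESC, at intensities of 17.2 and 31.2. Pou5f1, the Oct4 gene for which the MAPC clone is named, was well below its level in ESC: its difference was -2.02 for MAPC minus ESC and 1.39 for MAPC minus NS.

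The proteasome destroys proteins tagged with ubiquitin. Its core particle is a barrel of stacked rings, the outer ones of alpha subunits (Psma genes) and the inner ones of beta subunits (Psmb genes), of which Psmb5, Psmb6 and Psmb7 carry the cutting sites. A regulatory particle caps the barrel. Its base, with a ring of ATPases (Psmc genes), binds ubiquitin and unfolds the substrate, and its lid (most Psmd genes) removes ubiquitin. Under interferon, and constitutively in many blood cells, Psmb8, Psmb9 and Psmb10 replace Psmb5, Psmb6 and Psmb7 to form the immunoproteasome, and the activator of Psme1 and Psme2 subunits opens the barrel; both change the peptides shown on MHC class I molecules.

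Most proteasome genes that passed a test against NS were higher in MAPC and in ESC, while the immunoproteasome subunits and the activators were lowest in MAPC. Against NS, 23 of the 43 genes were higher in MAPC, 8 were lower and 12 did not pass the test, with a median difference of 0.25 on the log2 scale. Over all genes tested in MAPC minus NS the median was 0.03 and 43.7% passed, 21.2% as higher and 22.5% as lower. ESC minus NS ran the same way, with 31 genes higher, 2 lower and 10 not past the test and a median of 0.37, beside 38.2% of all genes, 19.8% as higher and 18.4% as lower, and a median of 0.01. Both comparisons share the same 2 NS arrays. Among the genes that passed, all of those measured on both days of Feature Extraction (the days of replicates 1 and 2) had the same sign on each day: 28 genes for MAPC and 32 for ESC. These genes were called from the same arrays, so this agreement follows largely from the call and is no separate support.

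Between MAPC and ESC, more genes were lower than higher in MAPC. In MAPC minus ESC, 6 genes were higher, 18 were lower and 19 did not pass the test, with a median of -0.10; over all genes 38.1% passed, 16% as higher and 22.1% as lower, and the median was 0.01. When the ratios were also scaled between arrays the split was 9 higher and 16 lower. The count of 6 higher genes depended on single arrays: 3 passed without MAPC 2 and 2 without ESC 2. On both days, 22 of the 22 called genes measured on each had the same sign, which again follows largely from the call. Among genes with a symbol, 50.4% passed in this comparison, 55.2% in the one of MAPC with NS and 51.1% in the one of ESC with NS.

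The order of the groups was also read from the arrays directly, for the 37 proteasome genes measured on all 6. Both NS arrays lay below the other 4 for 23 of these genes (62.2%), beside 22.2% of the 35644 genes measured on all arrays. Both ESC arrays lay above the others for 16 (43.2%), beside 17.6%, and below them for 0, beside 12.9%. Both MAPC arrays lay below the others for 11 (29.7%), beside 20%, and above them for 9 (24.3%), beside 24.7%. Both NS arrays lay above the others for 3, Psmc6, Psme3 and Psmc3ip (8.11%), beside 20.6%. MAPC above the others was therefore about as frequent among proteasome genes as among all genes.

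**Figure D1:**
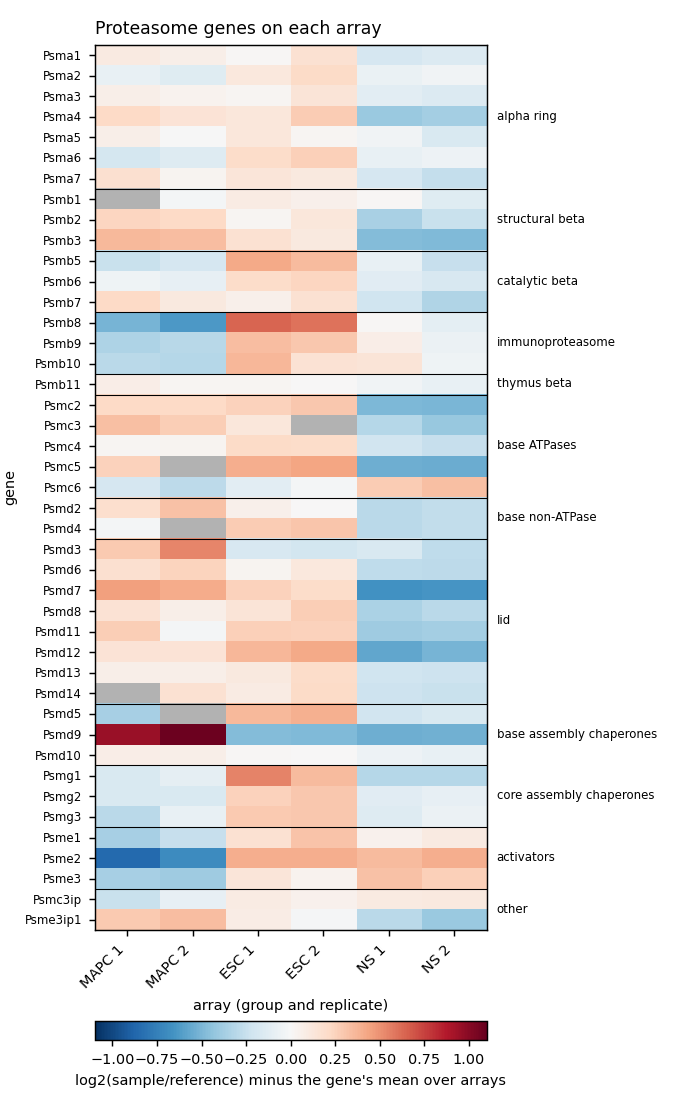
Values of the 43 proteasome genes (rows, grouped by role) on the 6 arrays (columns, by group and replicate), as log2(sample/reference) minus the gene's mean over the arrays measured; red is above that mean, blue below, and grey marks a spot left out as an outlier. The NS columns are blue over most core, base and lid subunits, and the MAPC columns are blue over the immunoproteasome subunits and activators.

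The 3 inducible catalytic subunits were lower in MAPC than in both other groups, in 3 of 3 genes each time. Of all genes tested, 22.1% were lower in MAPC minus ESC and 22.5% in MAPC minus NS. Psmb8, which takes the place of Psmb5, read -4.06 and -4.18 on the MAPC arrays, -2.91 and -2.95 on the ESC arrays, and -3.53 and -3.66 on the NS arrays. The groups did not overlap: MAPC was lowest, ESC highest and NS between them. The difference was -1.19 ± 0.07 (SE) in MAPC minus ESC (adjusted p = 5.69e-06; -1.15 and -1.23 within the 2 days), a 2.28-fold lower ratio, and -0.52 ± 0.07 in MAPC minus NS (adjusted p = 0.00043). A second, dimmer probe for Psmb8 gave smaller differences of the same sign, -0.67 and -0.31.

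Psmb9, which takes the place of Psmb6, had ratios of -2.79 and -2.76 in MAPC, -2.12 and -2.16 in ESC, and -2.39 and -2.52 in NS. Its order was the same as that of Psmb8, again without overlap. Its difference was -0.64 ± 0.06 (SE) in MAPC minus ESC (adjusted p = 9.78e-05) and -0.33 ± 0.06 in MAPC minus NS (adjusted p = 0.00333).

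Psmb10, which takes the place of Psmb7, stood at -0.57 and -0.59 in MAPC, 0.09 and -0.11 in ESC, and -0.13 and -0.31 in NS. The MAPC arrays were below all others, and the ESC arrays were above the NS arrays by a margin smaller than the gap between replicates. The difference was -0.57 ± 0.09 (SE) in MAPC minus ESC (adjusted p = 0.0013) and -0.36 ± 0.09 in MAPC minus NS (adjusted p = 0.0121), while ESC minus NS, 0.21 ± 0.09, did not pass (adjusted p = 0.102). It passed when replicates were blocked (adjusted p = 0.038) and when ESC 2 was left out (0.31, adjusted p = 0.0327). Psmb8 and Psmb9 were higher in ESC than in NS, by 0.66 and 0.31.

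These 3 genes were among the dimmest of the set, and the size of their differences depended on how background was handled. The background-subtracted sample intensity of Psmb8 was 52.8 and 43.8 in MAPC, 180 and 193 in ESC, and 116 and 96.8 in NS, and that of Psmb9 was 73.4 and 72.6 in MAPC, 159 and 164 in ESC, and 142 and 125 in NS. The brightest of 314 negative control spots reached 39.9 and 165 on the MAPC arrays, 10.2 and 83.3 on the ESC arrays, and 30.5 and 69.1 on the NS arrays. On MAPC 2, all 3 genes were brighter than 99.7% of the negative control spots, and on the other arrays they were brighter than all of them. Over the alternatives, Psmb8 kept its sign and its call in MAPC minus ESC, from -1.75 to -0.41, while Psmb9 and Psmb10 each lost the call in 1 of 18. In MAPC minus NS, Psmb8 ran from -1.08 to -0.14. The call there was lost in 1 of the 18 alternatives for Psmb8, 2 for Psmb9 and 3 for Psmb10. Psmb9 in MAPC minus NS came to -0.07 without background subtraction (adjusted p = 0.252).

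**Figure D2:**
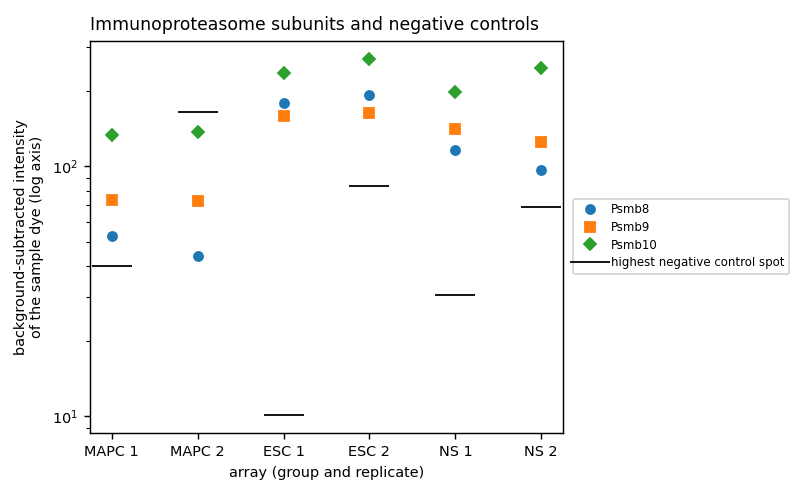
Background-subtracted sample-dye intensity (log axis) of Psmb8, Psmb9 and Psmb10 on each of the 6 arrays, with the brightest negative control spot of that array as a black bar. Every point lies above its array's bar except the 3 points of MAPC 2, whose bar stands at 165.

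The constitutive counterparts did not share this order. Psmb5, the chymotrypsin-like subunit, had -0.61 and -0.55 in MAPC, 0.05 and -0.02 in ESC, and -0.46 and -0.63 in NS. ESC was above both other groups, and MAPC and NS overlapped. Its difference was -0.60 ± 0.07 (SE) in MAPC minus ESC (adjusted p = 0.000322) and -0.04 in MAPC minus NS (adjusted p = 0.682).

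Psmb6, the caspase-like subunit, had 0.10 and 0.06 in MAPC, 0.35 and 0.38 in ESC, and 0.02 and -0.03 in NS. It too was highest in ESC: the difference was -0.29 ± 0.05 (SE) in MAPC minus ESC (adjusted p = 0.00359) and 0.08 in MAPC minus NS (adjusted p = 0.25). Psmb7, the trypsin-like subunit, had 1.47 and 1.36 in MAPC, 1.31 and 1.42 in ESC, and 1.04 and 0.92 in NS. Here MAPC and ESC overlapped and NS was below both; MAPC minus NS was 0.43 ± 0.07 (adjusted p = 0.00137) and MAPC minus ESC 0.05 (adjusted p = 0.642).

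Of each inducible and constitutive pair, both members were lower in MAPC than in ESC for Psmb8 and Psmb5 (-1.19 and -0.60) and for Psmb9 and Psmb6 (-0.64 and -0.29). For Psmb10 and Psmb7 (-0.57 and 0.05), the inducible subunit alone passed. Against NS, the inducible subunits passed as lower in MAPC in all 3 pairs and none of the constitutive ones did. Whether the members of a pair differ in their change was not tested. Psmb11, the catalytic subunit of thymic epithelium, read 0.09 and 0.04 in MAPC, 0.04 and 0.03 in ESC, and -0.02 and -0.07 in NS, and passed in no comparison.

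**Figure D3:**
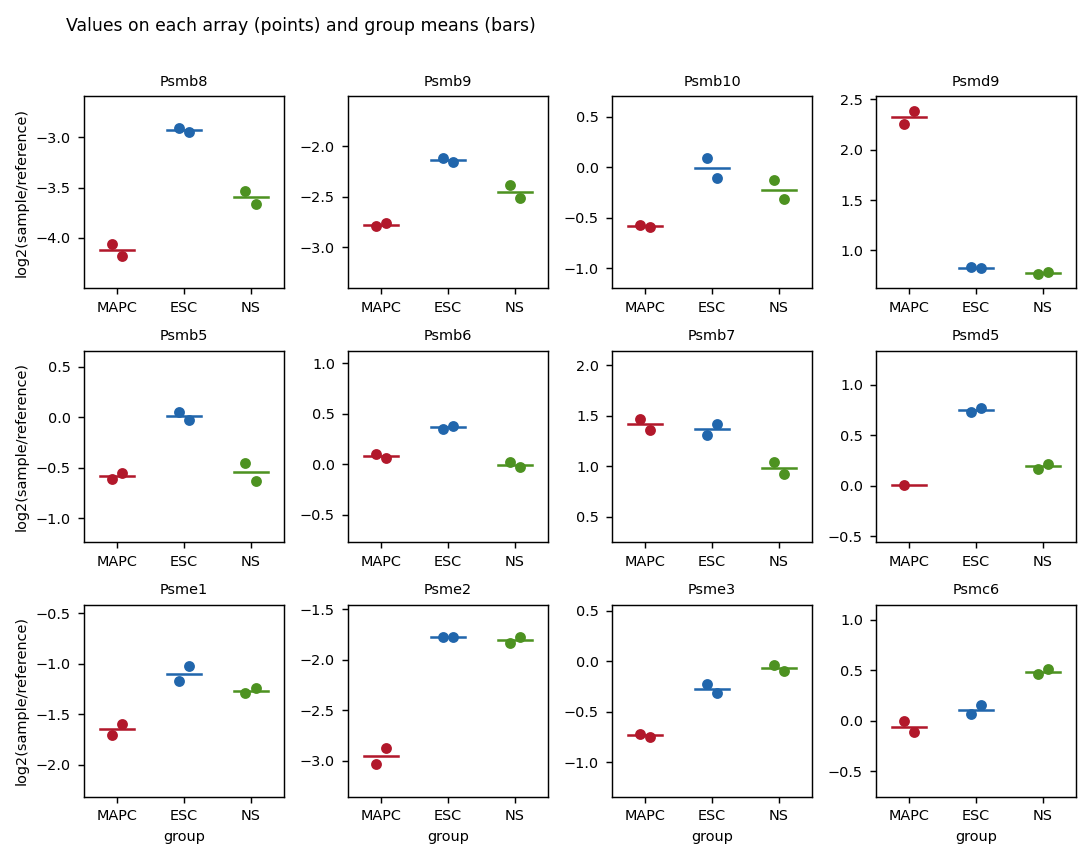
log2(sample/reference) on each array (points; MAPC red, ESC blue, NS green) and group means (bars) for the inducible subunits with Psmd9 (top row), their constitutive counterparts with Psmd5 (middle row) and the activators with Psmc6 (bottom row). Each panel spans the same range of the log2 axis around its own middle; Psmd5 has 1 MAPC point.

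The 3 activator genes on the array were all lower in MAPC than in ESC and in NS, beside 22.1% and 22.5% of all genes tested. Psme2, the beta subunit of the interferon-induced activator, had -3.04 and -2.88 in MAPC, -1.78 and -1.78 in ESC, and -1.83 and -1.78 in NS. MAPC stood more than 1 log2 unit below the rest, and ESC and NS were close to each other. The difference was -1.18 ± 0.07 (SE) in MAPC minus ESC (adjusted p = 5.03e-06) and -1.15 ± 0.07 in MAPC minus NS (adjusted p = 3.88e-06), whereas ESC minus NS was 0.03 (adjusted p = 0.794).

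Psme1, the alpha subunit of the same activator, read -1.71 and -1.60 in MAPC, -1.17 and -1.02 in ESC, and -1.29 and -1.24 in NS. The MAPC arrays were again the lowest, with a smaller gap: -0.55 ± 0.07 (SE) in MAPC minus ESC (adjusted p = 0.000489) and -0.38 ± 0.07 in MAPC minus NS (adjusted p = 0.00289). Psme3, which forms a separate activator in the nucleus that acts without ubiquitin, read -0.72 and -0.75 in MAPC, -0.23 and -0.31 in ESC, and -0.03 and -0.09 in NS. Its order placed NS highest: the difference was -0.46 ± 0.06 in MAPC minus ESC (adjusted p = 0.000408), -0.67 ± 0.06 in MAPC minus NS (adjusted p = 3.74e-05) and -0.21 ± 0.06 in ESC minus NS (adjusted p = 0.0239). The last call was lost in 7 of the 18 alternatives, among them median centring (-0.079, adjusted p = 0.485) and leaving out ESC 2 (-0.16), NS 1 (-0.18) or NS 2 (-0.24). RefSeq lists Psme2b as a near copy of Psme2, so the signal of the Psme2 probe is uncertain to the extent that it takes up the copy. The signals of Psme1, Psme2 and Psme3 lay far above the negative controls, and all 6 MAPC differences of these genes passed under each of the 18 alternatives. Several of these alternatives leave the difference of a gene with 1 probe, as these have, unchanged.

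**Figure D4:**
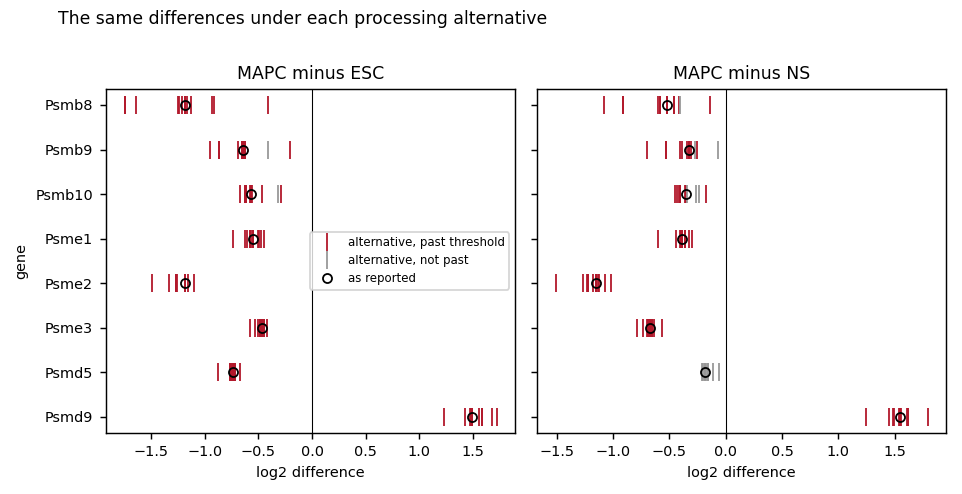
log2 differences of 8 proteasome genes in MAPC minus ESC (left) and MAPC minus NS (right) as reported (open circles) and under each of the 18 processing alternatives (ticks; red where adjusted p was under 0.05, grey where not). Ticks of Psmb8 spread from -1.75 to -0.41 on the left, while those of Psme3 stay between -0.58 and -0.42.

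Markers of other cell types moved with these groups in part. Over all genes tested, 22.1% were lower in MAPC than in ESC, 22.5% lower in MAPC than in NS and 19.8% higher in ESC than in NS. Of the 6 fibroblast markers tested, 5 were lower in MAPC than in ESC, 5 were lower in MAPC than in NS and 6 were higher in ESC than in NS. Their summed sample intensity was 441 and 495 in MAPC, 11410 and 7575 in ESC, and 1365 and 1598 in NS. Most of the sum in ESC was Postn, at 8032 and 4415. Of the 7 blood cell markers tested, 4 were lower in MAPC than in ESC, 0 passed limma's test in MAPC minus NS, also 0 at an unadjusted p under 0.05, and 3 were higher in ESC than in NS. Their summed intensity was 2915 and 2828 in MAPC, 4050 and 4734 in ESC, and 2408 and 1800 in NS. Most of this sum was Coro1a, which passed in no comparison. Its intensity was 2557 and 2396 in MAPC, 2242 and 2566 in ESC, and 1968 and 1344 in NS. Lyz2, a lysozyme of macrophages, differed by -2.98 in MAPC minus ESC and 0.00 in MAPC minus NS, and Ptprc, the CD45 gene, had intensities of 3.26 to 15.8 over the 6 arrays. The part of such cells in the differences of the inducible subunits and activators was not tested; in bulk RNA, fewer cells of a type and less RNA per cell cannot be told apart.

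Genes of the class I peptide pathway and the interferon response were lower in MAPC more often than higher. Of 17 tested from a list of 20, 9 were lower and 2 higher in MAPC minus ESC, with a median of -0.34, and 9 were lower and 0 higher in MAPC minus NS by limma, with a median of -0.20 (0 higher also at an unadjusted p under 0.05). Over all genes tested, 22.1% were lower and 16% higher in MAPC minus ESC, and 22.5% lower and 21.2% higher in MAPC minus NS. In either direction, 64.7% and 52.9% of this list passed, beside 50.4% and 55.2% of all genes with a symbol. Bst2, an interferon-induced membrane protein that tethers virus particles, read -3.56 and -3.68 in MAPC, 0.58 and 0.69 in ESC, and -0.40 and -0.52 in NS. Irf1, a transcription factor known to act on immunoproteasome genes, read -1.33 and -1.18 in MAPC, 0.91 and 0.61 in ESC, and -0.64 and -0.58 in NS. MAPC was lowest and ESC highest for both, without overlap, as for Psmb8 and Psmb9. Tap2, which carries peptides into the endoplasmic reticulum, was lower in MAPC than in ESC (-0.41, adjusted p = 0.00144) and than in NS (-0.46, adjusted p = 0.000689). The sample intensity of Tap2 was 14.2 and 16.5 in MAPC, 33.7 and 41.1 in ESC, and 54.5 and 40.0 in NS. That of Irf1 in MAPC was 15.3 and 24.3. On both MAPC arrays, Tap2 and Irf1 lay below the brightest negative control spot (39.9 and 165), so the sizes of their differences are uncertain. Bst2, at 74.9 and 67.6, lay below it on MAPC 2. B2m, the light chain of MHC class I, was lower in MAPC than in ESC (-1.59) and than in NS (-1.46), with 1 ESC and 1 NS array left. The interferon gamma receptor gene Ifngr1 was higher in MAPC than in ESC, by 0.69, and lower in MAPC than in NS (-0.25, adjusted p = 0.0092).

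Short motifs were searched in RefSeq promoters (build GRCm38.p6, 250 bases before to 50 after the start site, both strands), because interferon and NRF1 or NRF2 are known to act on proteasome genes through such letters. Windows were held for 36 of the 43 genes, 40 in all. The letters GAAANNGAAA of the interferon-stimulated response element lay in 4 of the 40 windows (10%), beside 3.44% of all 32851 promoters. These 30-base stretches show each match, in capitals, on the strand of the gene:
Psme1: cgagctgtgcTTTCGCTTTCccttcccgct
Psmb3: cacagtgactTTTCACTTTCcgctttccat
Psmd4: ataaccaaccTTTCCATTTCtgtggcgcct
Psmd9: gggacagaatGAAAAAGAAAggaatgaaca

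The Psme1 stretch is at chr14:55578493-55578522 on the plus strand, that of Psmb3 at chr11:97703261-97703290 on the plus strand, that of Psmd4 at chr3:95042675-95042704 on the minus strand and that of Psmd9 at chr5:123228021-123228050 on the plus strand. The match in Psme1 starts 9 bases after the start site, in the first transcribed bases, and the other 3 lie before it. The genes that carry the letters did not move together: in MAPC minus ESC, Psme1 and Psmd4 were lower and Psmb3 and Psmd9 higher.

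The letters TTCNNNGAA of the gamma-activated site lay in 3 of the 40 windows (7.5%), beside 8.3% of all promoters. The match in Psmb8, shown because this gene had the lowest difference in MAPC minus ESC, lies 97 bases before the start site at chr17:34198087-34198116 on the plus strand:
Psmb8: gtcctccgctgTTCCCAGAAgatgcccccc

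The letters TGACNNNGC of the antioxidant response element, the kind of site that NRF1 and NRF2 bind, lay in 5 of the 40 windows (12.5%), beside 12.4% of all promoters. The fifth gene was Psmd9. The 4 shown were chosen after their values were seen, for subunits whose differences against NS ran in different directions:
Psmb5: acgtgaagttgTGACGTCGCggcgttgcca
Psmb6: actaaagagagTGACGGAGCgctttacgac
Psmd12: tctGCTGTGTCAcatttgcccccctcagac
Psmc6: gccagccagtaGCTAAGTCAggcattgctc

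These lie at chr14:54618024-54618053 on the minus strand for Psmb5, chr11:70525337-70525366 on the plus strand for Psmb6, chr11:107479278-107479307 on the plus strand for Psmd12 and chr14:45329586-45329615 on the plus strand for Psmc6. Psmd12 was higher and Psmc6 lower in ESC than in NS, and both hold the letters. A match describes the letters of the window only.

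Among the 28 constitutive subunits of the core, base and lid, 21 were higher in MAPC than in NS, 1 was lower and 6 did not pass, with a median difference of 0.42. In ESC minus NS, 24 were higher, 1 was lower and 3 did not pass, with a median of 0.38. Between MAPC and ESC, 4 were higher in MAPC, 7 were lower and 17 did not pass, with a median of -0.05. In either direction this was 39.3%, close to the 38.1% of all genes and below the 50.4% of genes with a symbol. The 1 lower gene was the same ATPase, Psmc6, in both comparisons with NS.

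Of the 7 alpha subunits, which form the outer rings and the gate of the barrel, 4 were higher in MAPC than in NS and 6 were higher in ESC than in NS, with medians of 0.18 and 0.26. The shares over all genes tested were 21.2% and 19.8%. Several of these calls were marginal. In MAPC minus NS, Psma3 lost its call in 9 of the 18 alternatives and Psma1 in 7. In ESC minus NS, Psma2 and Psma3 each lost it in 6 and Psma1 in 4. Psma4 differed most from NS, by 0.57 ± 0.07 (SE) in MAPC and by 0.59 ± 0.07 in ESC. In MAPC minus ESC, Psma6 (-0.40) and Psma2 (-0.27) were lower and the other 5 lay between -0.04 and -0.01. RefSeq also lists pseudogenes of Psma5, Psmb5, Psmb6 and Psmb7, whose probes could take up copies.

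Among the structural beta subunits, which hold the inner rings together without cutting, Psmb3 had 0.89 and 0.87 in MAPC, 0.70 and 0.64 in ESC, and 0.06 and 0.05 in NS. The groups did not overlap. Its difference was 0.83 ± 0.05 (SE) in MAPC minus NS (adjusted p = 6.49e-06) and 0.21 ± 0.05 in MAPC minus ESC (adjusted p = 0.0153). The call against ESC was lost in 6 of the 18 alternatives (adjusted p from 0.0528 to 0.0738), among them leaving out MAPC 1, MAPC 2 or ESC 2. Psmb2 was higher in MAPC than in NS by 0.53 (adjusted p = 0.000265), and Psmb1, with MAPC 1 left out as an outlier spot, passed in no comparison.

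The ATPases of the base split. Psmc2, Psmc3, Psmc4 and Psmc5 were each higher in MAPC and in ESC than in NS, although Psmc3 in ESC minus NS, with 1 ESC array left, came to -0.033 when the sample dye was used without the reference. Psmc5 read 1.07 on the 1 MAPC array left, 1.22 and 1.25 in ESC, and 0.28 and 0.27 in NS. Psmc2 read 0.57 and 0.57 in MAPC, 0.60 and 0.65 in ESC, and -0.14 and -0.15 in NS. NS was far below the other cells for both: Psmc5 differed by 0.96 ± 0.05 (SE) in ESC minus NS (adjusted p = 1.42e-05) and Psmc2 by 0.77 ± 0.05 (adjusted p = 1.08e-05).

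Psmc6 ran the other way. It read 0.00 and -0.11 in MAPC, 0.07 and 0.16 in ESC, and 0.46 and 0.51 in NS. NS was highest, without overlap. The difference was -0.54 ± 0.06 (SE) in MAPC minus NS (adjusted p = 0.000223) and -0.37 ± 0.06 in ESC minus NS (adjusted p = 0.0021). Both passed under each of the 18 alternatives, from -0.60 to -0.39 and from -0.46 to -0.25. Psmc6 had 1 probe on the array, and several alternatives leave the difference of such a gene unchanged.

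The 2 other base subunits, the scaffold Psmd2 and the ubiquitin receptor Psmd4, were higher in MAPC than in NS, by 0.54 and 0.26. They differed in sign between MAPC and ESC: Psmd2, at 0.64 and 0.78 in MAPC, 0.52 and 0.46 in ESC, and 0.16 and 0.18 in NS, was higher in MAPC by 0.22 (adjusted p = 0.0273), and Psmd4, with 1 MAPC array left, was lower (-0.32, adjusted p = 0.00914). The Psmd2 call was lost in 8 of the 18 alternatives, among them the fit of the 2 groups alone (adjusted p = 0.051) and leaving out MAPC 2 (0.15), ESC 2, NS 1 or NS 2. Leaving out NS 1 or NS 2 gave the same result as the 2 groups alone, so these alternatives are not separate. The Psmd4 call against NS was lost in 5 of its 17 alternatives, among them leaving out NS 1 or NS 2. Psmd2 in ESC minus NS, 0.31, turned to -0.055 with the sample dye alone.

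All 8 lid subunits were higher in MAPC than in NS, with differences from 0.29 to 1.09 and a median of 0.50, and 7 of 8 were higher in ESC than in NS. The shares over all genes tested were 21.2% and 19.8%. Psmd7, an inactive partner of the deubiquitinase, read 1.63 and 1.58 in MAPC, 1.43 and 1.38 in ESC, and 0.52 and 0.53 in NS. Of the lid subunits it differed most in MAPC minus NS, by 1.09 ± 0.05 (SE, adjusted p = 1.52e-06), and it differed by 0.88 ± 0.05 in ESC minus NS (adjusted p = 6.47e-06). Psmd12, a scaffold subunit of the lid, read 0.80 and 0.80 in MAPC, 1.02 and 1.07 in ESC, and 0.08 and 0.14 in NS. ESC was highest here, and the difference was -0.25 in MAPC minus ESC (adjusted p = 0.00827; -0.14 and 0.0854 with scaling between arrays) and 0.94 ± 0.05 in ESC minus NS (adjusted p = 5.2e-06). Psmd14, the deubiquitinase that strips ubiquitin from substrates, was higher by 0.41 in MAPC minus NS, with 1 MAPC array left, and by 0.39 in ESC minus NS.

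Psmd3, another lid subunit, was the exception in ESC. It read 0.92 and 1.17 in MAPC, 0.46 and 0.43 in ESC, and 0.46 and 0.35 in NS. MAPC was above the others and ESC and NS overlapped: the difference was 0.60 ± 0.09 (SE) in MAPC minus ESC (adjusted p = 0.000955) and 0.04 in ESC minus NS (adjusted p = 0.809). The second probe of Psmd3 gave 0.38 in ESC minus NS, so the 2 probes disagree there.

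**Figure D5:**
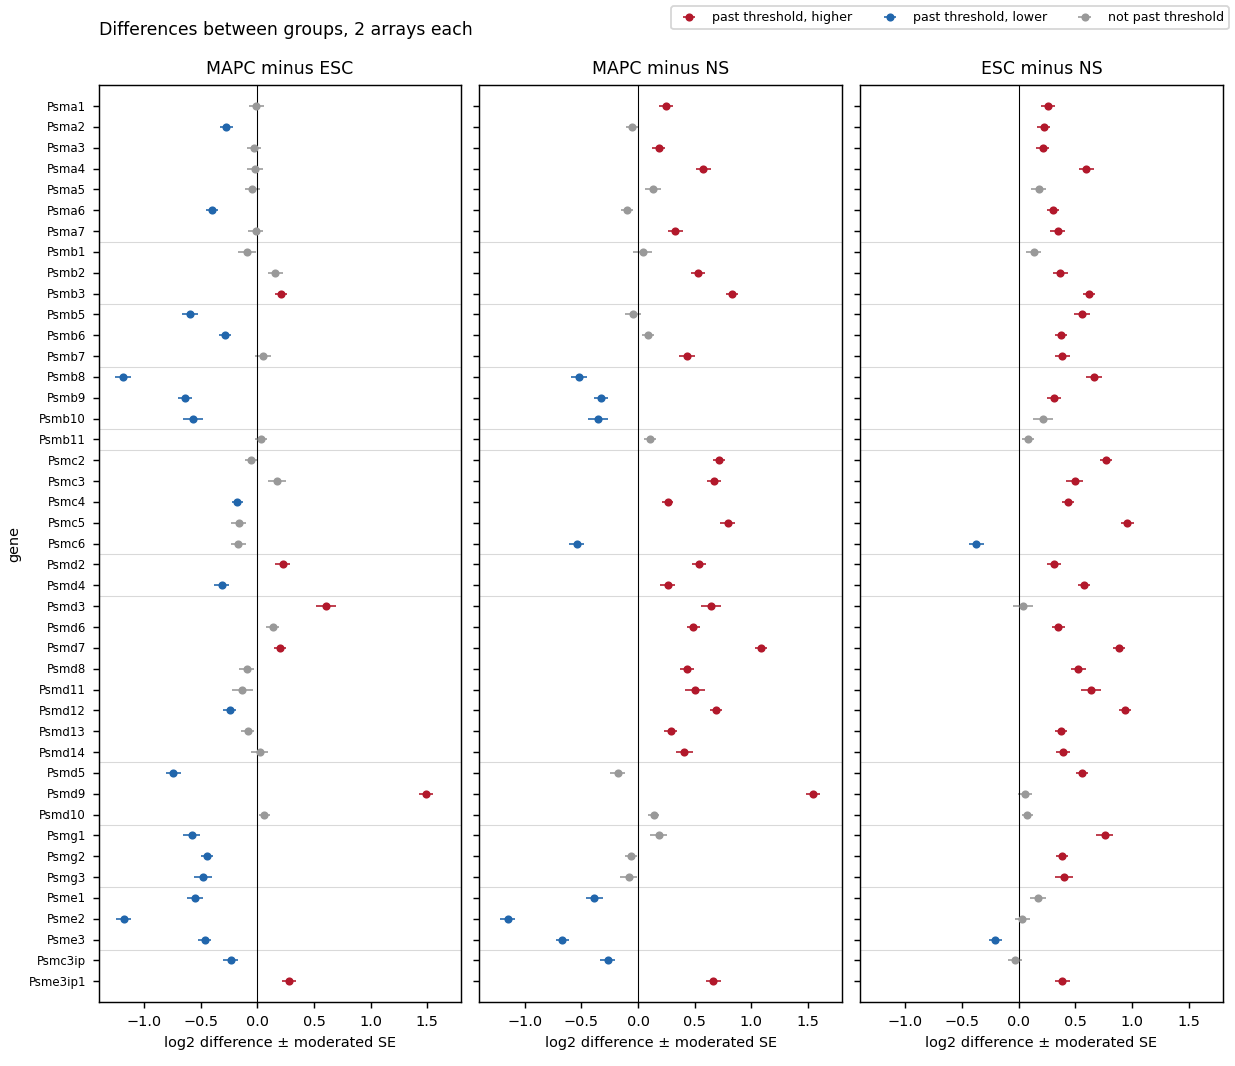
log2 differences (points) with moderated standard errors (bars) of the 43 proteasome genes in each of the 3 comparisons, a panel apiece, 2 arrays a group; red and blue points passed as higher and lower at adjusted p under 0.05, grey ones did not, and grey lines part the roles. Most core, base and lid subunits lie right of 0 in both comparisons with NS, and Psmd9 lies far right in both MAPC comparisons, at 1.49 and 1.55.

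The assembly factors split. Psmd9, a chaperone that helps build the ATPase ring of the base, read 2.26 and 2.39 in MAPC, 0.84 and 0.83 in ESC, and 0.77 and 0.78 in NS. Both MAPC arrays stood far above the other 4, which lay close together. The difference was 1.49 ± 0.06 (SE) in MAPC minus ESC (adjusted p = 8.65e-07) and 1.55 ± 0.06 in MAPC minus NS (adjusted p = 4.49e-07), 2.81-fold and 2.92-fold higher ratios, while ESC minus NS was 0.06 (adjusted p = 0.565). No other proteasome gene was as far above both groups in MAPC. Psmd9 had 1 probe, and over the alternatives its difference stayed between 1.23 and 1.72 in MAPC minus ESC.

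Psmd5, a chaperone of the same step, went the other way. It read 0.01 on the 1 MAPC array left, 0.73 and 0.77 in ESC, and 0.17 and 0.21 in NS. Its difference was -0.74 ± 0.07 (SE) in MAPC minus ESC (adjusted p = 0.000172) and -0.18 in MAPC minus NS (adjusted p = 0.075). Psmd10, the chaperone also known as gankyrin, passed in no comparison, and its 2 probes disagreed in sign in all 3.

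Psmg1, Psmg2 and Psmg3, chaperones that guide the assembly of the alpha ring, were each highest in ESC. Psmg1 read 0.29 and 0.36 in MAPC, 1.00 and 0.80 in ESC, and 0.14 and 0.14 in NS. Psmg2 read 0.19 and 0.19 in MAPC, 0.61 and 0.66 in ESC, and 0.23 and 0.27 in NS, and Psmg3 read 0.03 and 0.25 in MAPC, 0.61 and 0.63 in ESC, and 0.18 and 0.27 in NS. Both ESC arrays were above the other 4 for each gene. All 3 were lower in MAPC than in ESC, with differences of -0.58, -0.44 and -0.48 (adjusted p at most 0.00176), and none of the 3 passed limma's test in MAPC minus NS, where Psmg1 alone had an unadjusted p under 0.05 (0.0429). The Psmg1 difference from NS was 0.18 with the probe used, 0.49 with its second probe and 0.34 with their average (adjusted p = 0.00567). It passed in 6 of the 18 alternatives, of which leaving out ESC 1 or ESC 2 repeats the fit of the 2 groups alone. They were higher in ESC than in NS by 0.76, 0.38 and 0.40.

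Of the genes outside the proteasome that the rule took in, Psme3ip1 had 1.20 and 1.25 in MAPC, 0.99 and 0.90 in ESC, and 0.62 and 0.50 in NS, and was higher in MAPC by 0.28 against ESC and 0.67 against NS. Psmc3ip was lower in MAPC than in ESC (-0.24, adjusted p = 0.0245) and than in NS (-0.27, adjusted p = 0.012). These calls were lost in 6 and 4 of the 18 alternatives; without MAPC 1 the differences were -0.16 (adjusted p = 0.133) and -0.19 (adjusted p = 0.0689). That of Psme3ip1 against ESC was lost in 3, among them leaving out MAPC 2 or ESC 2. Without both, the counts were 5 higher and 17 lower of 41 in MAPC minus ESC and 22 higher and 7 lower in MAPC minus NS.

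Proteins that work with the proteasome gave mixed values. Of 12 tested from a list of 19 partners, 6 were higher and 4 lower in MAPC minus ESC, 5 higher and 3 lower in MAPC minus NS, and 6 higher and 4 lower in ESC minus NS. In either direction these are 83.3%, 66.7% and 83.3%, beside 50.4%, 55.2% and 51.1% of all genes with a symbol. Adrm1, a ubiquitin receptor of the base, and Usp14, a deubiquitinase docked on it, ran with most base and lid subunits: in MAPC minus NS they were higher by 1.13 and 0.86, with 1 MAPC array left for Adrm1. Sem1, a small lid subunit outside the naming rule, read -0.49 and -0.34 in MAPC, -0.88 and -0.76 in ESC, and 0.22 and 0.16 in NS. NS was its highest group, unlike for any of the 8 lid subunits, with a difference from NS of -0.60 for MAPC and -1.01 for ESC. Uchl5, a deubiquitinase that binds Adrm1, was lower in MAPC than in ESC (-0.80), and its difference in MAPC minus NS was -0.04 (adjusted p = 0.696).

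Of 8 tested genes linked to the transcription of proteasome genes, 4 were higher and 2 lower in MAPC minus ESC and 3 higher and 2 lower in MAPC minus NS. In either direction these are 75% and 62.5%, beside 50.4% and 55.2% of all genes with a symbol. In ESC minus NS, 4 were higher, 1 was lower and 3 did not pass, 62.5% in either direction beside 51.1%. Nfe2l1 encodes NRF1, the factor known to raise proteasome genes when the proteasome is blocked, and read 0.42 and 0.46 in MAPC, 0.18 and 0.09 in ESC, and -0.10 and -0.09 in NS. It was lowest in NS, while Ngly1, another gene of this list, was highest there. Ngly1 differed by -0.34 in MAPC minus NS (adjusted p = 0.00176) and by -0.70 in ESC minus NS (adjusted p = 3.7e-05). Nfe2l2 encodes NRF2, the factor of the oxidative stress response, and read -1.37 and -1.44 in MAPC, -0.36 and -0.35 in ESC, and -0.37 and -0.20 in NS. It was lower in MAPC than in ESC (-1.05) and than in NS (-1.11). Mafk, a small partner of both factors, was higher in MAPC by 1.12 against ESC and 2.06 against NS.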

How the data were processed

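Each of the 6 arrays was deposited as scanner output, per the file headers made with Agilent Feature Extraction version A.7.5.1: the intensity of each spot in both dyes, with flags. From the deposited intensities, the mean signals of both dyes were corrected with normexp (offset 50) and loess-normalized within arrays in limma 3.58.1 (R 4.3.3, data.table version 1.17.8) without outlier-marked spots, and averaged per probe. The authors' series matrix gives log10 values; 93.9% of the 37877 spots above its floor equalled the deposited log10 ratio plus a constant of the spot within 0.001, and its medians were 2.95 to 2.97. The constant was not stated, the direction was taken from r = 0.980 with the scanner ratios, and these values served only as an alternative.

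Accessions were named through RefSeq (GRCm38.p6): 25625 of 41006 probes stayed unnamed. A gene was represented by its brightest probe, by mean over all arrays, and tested when well above background in the sample dye on both arrays of at least 1 group. One limma fit of the 6 arrays (3 residual degrees of freedom, two-sided) gave the 3 comparisons. The fit was tested on simulated data. All members were placed in classes by role, and those given on every array were the inducible and constitutive catalytic subunits, activators, core chaperones and, in each comparison, the 5 largest differences either way past the threshold. Psmc5, Psmd4 and Psmd5 lack MAPC 2, Psmb1 and Psmd14 lack MAPC 1, and Psmc3 lacks ESC 2. Members and lists were chosen with earlier results of these data known. The 18 alternatives changed background correction, normalization, filter, probes, outlier spots, samples in the fit or replicate block, or left out 1 array. They are not all separate. The filters left the difference of every member unchanged, as did probe averaging for a gene with 1 probe and kept outlier spots for a gene without them. Leaving out an array of the third group repeats the fit of the 2 groups alone. The processed intensities and the series matrix gave nearly the same differences. Some genes of the lists are not reported here.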

Additional observations from a re-analysis of the deposited data

How the results depend on the processing

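Over 43 genes and 3 comparisons, 2165 values stayed on their side of the threshold under an alternative, 112 lost the call and 34 gained one. Many of the 2165 come from alternatives that leave a gene's difference unchanged, so this count does not measure how firm the calls are. Of all values, 44 had the opposite sign, of which 2 had passed as reported and 2 others passed under the alternative. The sample dye without the reference moved most counts: 14 higher and 4 lower in MAPC minus NS, 16 higher and 1 lower in ESC minus NS, and 11 lower in MAPC minus ESC, with Psmd2 at -0.055 (adjusted p = 0.755) and Psmc3 at -0.033 (adjusted p = 0.904) in ESC minus NS. Under it Psmb9 and Psmb10 in MAPC minus ESC (adjusted p = 0.101 and 0.077) and Psmb8, Psmb9 and Psmb10 in MAPC minus NS (0.104, 0.23 and 0.141) did not pass. Median centring turned Psma2 to 0.23 and Psmb5 to 0.21 in MAPC minus NS and left 1 lower gene, without Psme3, in ESC minus NS. The processed intensities and the series matrix each gave 3 higher genes in MAPC minus ESC and 1 lower gene in ESC minus NS. The cause was not tested. Leaving out each array in turn gave 2 to 7 higher and 15 to 18 lower genes in MAPC minus ESC, 19 to 24 higher and 6 to 8 lower in MAPC minus NS, and 28 to 31 higher and 1 to 2 lower in ESC minus NS; Psme3 was lost without ESC 2, NS 1 or NS 2, and Psmb10 in MAPC minus NS did not pass without MAPC 2 (adjusted p = 0.0551) or NS 1 (0.086). Replicate numbers ran with the day of Feature Extraction, but the labels pair no samples, and same-numbered arrays deviated together with r = 0.10 (MAPC and ESC), 0.16 (MAPC and NS) and 0.21 (ESC and NS) over all genes and -0.15, 0.13 and 0.55 over the proteasome genes. With the replicate number as a block, 6 genes were higher and 18 lower in MAPC minus ESC, 23 and 8 in MAPC minus NS, and 34 and 2 in ESC minus NS, where Psmb10 passed. Without background subtraction Psmb9 lost its call in MAPC minus NS.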
